A study of Sus scrofa domesticus with 36 samples.

Results

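SNCG, MMRN2 and SMDT1 were followed in backfat and skeletal muscle of 18 pigs as genes that each stood at 1 of 2 levels, low or high, in every library. They are 3 of the 25322 pig genes in the deposited count table, where they carry the identifiers ENSSSCG00000026850, ENSSSCG00000024048 and ENSSSCG00000020945. They were picked because the libraries of each tissue split into a low and a high set for them, so the levels and the split are described here without a test, and the tests concern other genes and the difference between tissues.

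RNA was sequenced from subcutaneous backfat (adipose) and longissimus dorsi muscle of the same 18 animals, 1 library of each tissue per pig and 36 libraries in all. The pigs were Danbred 600 by Newsham NC32 animals, per the growth protocol, sampled 3 weeks after weaning, although their age label reads 16 to 17 days. They had been selected from 1054 pigs for growth, 9 at or below percentile 10 and 9 between percentiles 60 and 70, and no label used here ties a pig to its growth class, so growth was not compared. The line number in the breed label runs from 32 to 71 and differs for each of the 36 libraries. The labels name no altered gene and no treatment. The pigs formed 9 pairs matched for litter size and for the parity of the sow, and no label used here gives a pig's pair either. A pig is named below by its sample title without the tissue code. Between 2990910 and 5373410 counts fell in genes per adipose library, and between 4716540 and 6216460 per muscle library. The tissue labels were checked by markers: all 8 adipocyte genes tested were higher in adipose and all 5 skeletal muscle genes tested were higher in muscle. Every adipose library nevertheless held muscle transcripts, with ACTA1, the skeletal muscle actin, between 52.4 and 17526 CPM (counts per 1e6 gene counts of the scaled library). In bulk tissue, fewer cells of a type and less RNA per cell cannot be told apart.

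SNCG encodes gamma-synuclein, a small soluble protein of the synuclein family that is abundant in peripheral neurons and in adipocytes, where it has been tied to lipid droplets. MMRN2, also called EndoGlyx-1, is a secreted glycoprotein of the EMILIN and multimerin family that endothelial cells lay down around vessels, and it binds CLEC14A, CD93 and CD248. SMDT1 encodes EMRE, the small inner membrane protein that joins the pore MCU of the mitochondrial calcium uniporter to gatekeepers such as MICU2, and without which the pore of animal cells does not conduct. In the order of the RefSeq pig genes (assembly Sscrofa11.1), MMRN2 and SNCG are adjacent and do not overlap, while the end of BMPR1A overlaps MMRN2. SMDT1 lies elsewhere, next to NDUFA6. No source used here names the genome build of the counts, so only gene order is taken from that table and no coordinates are given.

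For CPM, the total gene count of a library was scaled by its trimmed-mean (TMM) factor. A library was called low or high for a gene by the widest gap in its sorted log2 CPM. These classes come from the gene's own counts and are not groups of the study.

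SNCG was at the bottom of its range in 3 pigs and far higher in the other 15, in both tissues. In adipose the low pigs stood at 0.935 CPM (Sample_911), 1.11 CPM (Sample_176) and 1.52 CPM (Sample_572), which is 5.5 to 14 counts. The 15 high libraries ran from 28.5 through a median of 58.7 to 119 CPM. The mean was 1.19 ± 0.301 CPM (SD, n = 3) in the low set and 68.1 ± 29.3 CPM (SD, n = 15) in the high set, 57.2 times higher. The sets were parted by a gap of 4.17 log2 units, so that no library lay between 1.52 and 28.5 CPM, and the widest other gap was 0.43. In muscle the same 3 pigs were low, at 0.902 CPM (Sample_176), 1.09 CPM (Sample_572) and 2.05 CPM (Sample_911), from 2.5 to 6 counts. The 15 high muscle libraries ran from 24.3 through 56.0 to 96.1 CPM, and their mean was 40.3 times that of the low set. Low was therefore not zero: every SNCG-low library held some SNCG counts.

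MMRN2 was low in 8 pigs and high in 10. In adipose the low libraries ran from 0.186 through a median of 0.337 to 1.38 CPM (1 to 9.5 counts), and the high ones from 7.62 through 16.1 to 40.8 CPM, 37.7 times higher by their means. In muscle the low libraries ran from 0 through 0.315 to 1.12 CPM (0 to 5 counts) and the high ones from 4.81 through 12.0 to 26.8 CPM, 33.2 times higher. The low muscle libraries of Sample_231 and Sample_991 had 0 counts, which at their depth allows up to 1.15 and 1.06 CPM (3 counts, counting error only). The gap between the sets was 2.41 log2 units in adipose and 1.96 in muscle, and they held the same pigs in both tissues. The widest other gap was 1.28 in adipose and 1.40 in muscle, in each case inside the low set.

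SMDT1 was low in 9 pigs and high in 9, and its gap was far wider in muscle than in adipose. Muscle low libraries ran from 0 through a median of 1.12 to 1.36 CPM (0 to 5.5 counts), and high ones from 11.0 through 17.2 to 44.3 CPM, 27.0 times higher by their means and 2.88 log2 units apart at the gap. The muscle library of Sample_656 had 0 counts, which allows up to 1.02 CPM. The widest other muscle gap was 2.14 log2 units, inside the low set. In adipose the low libraries ran from 0.182 through 0.645 to 1.26 CPM (1.5 to 9.5 counts) and the high ones from 2.36 through 4.54 to 8.99 CPM, 7.71 times higher. The adipose gap was 0.87 log2 units, between Sample_735 at 1.26 CPM and Sample_186 at 2.36 CPM, and the next widest was 0.78, so adipose alone marks the boundary weakly. It nonetheless parted the same 9 pigs from the same 9 as in muscle.

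For each of the 3 genes, all 18 pigs had the same class in adipose and in muscle. The class of every library was also the same with a prior count of 2 in place of 0.5, with library totals in place of TMM factors, and with a 2-means split in place of the gap.

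**Figure D1:**
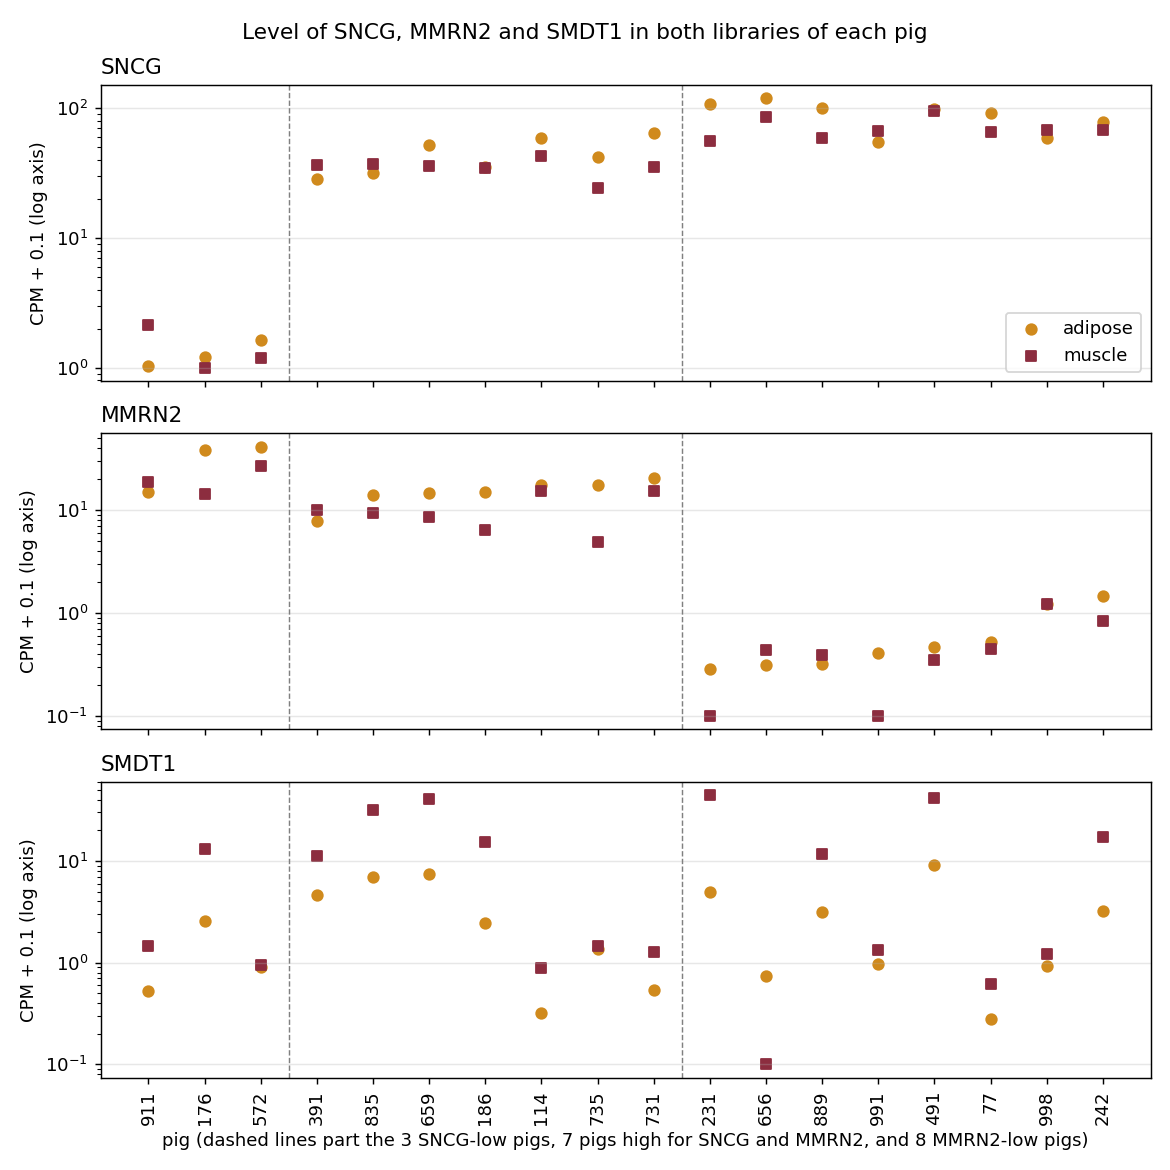
Level of SNCG, MMRN2 and SMDT1 (CPM plus 0.1, log axis) in the adipose library (circles) and the muscle library (squares) of each pig, with pigs in 1 order in all panels and dashed lines between the 3 SNCG-low pigs, the 7 pigs high for SNCG and MMRN2, and the 8 MMRN2-low pigs. In every panel both tissues of a pig fall at the same level, and SMDT1 is the gene whose high pigs stand higher in muscle than in adipose.

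No pig was low for both of the neighbours SNCG and MMRN2. With only 3 SNCG-low pigs, unrelated sets could also share no pig, and this was not tested. The 3 SNCG-low pigs were all high for MMRN2, the 8 MMRN2-low pigs were all high for SNCG, and 7 pigs were high for both. SMDT1 cut across these sets: 2 of the 3 SNCG-low pigs (Sample_572 and Sample_911) and 4 of the 8 MMRN2-low pigs (Sample_77, Sample_656, Sample_991 and Sample_998) were also low for SMDT1.

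Within the high libraries, the level of SNCG and of MMRN2 also differed with the class of the other gene. In muscle, SNCG ran from 56.0 through a median of 67.4 to 96.1 CPM in the 8 MMRN2-low pigs, and from 24.3 through 36.2 to 42.8 CPM in the 7 pigs high for both. These muscle ranges did not overlap. In adipose the MMRN2-low pigs had 54.6 through 94.8 to 119 CPM of SNCG and the pigs high for both had 28.5 through 41.8 to 65.0 CPM, with overlap. MMRN2 in turn stood at 14.8 CPM (Sample_911), 38.2 CPM (Sample_176) and 40.8 CPM (Sample_572) in the adipose of SNCG-low pigs, against 7.62 through 14.9 to 20.2 CPM in the 7 pigs high for both. Sample_176 and Sample_572 were above all of these 7, and Sample_911 was among them. In muscle the SNCG-low pigs had 14.1 CPM (Sample_176), 18.4 CPM (Sample_911) and 26.8 CPM (Sample_572) of MMRN2 against 4.81 through 9.32 to 15.3 CPM, and Sample_911 and Sample_572 were above that range. Over the 18 libraries of a tissue, Spearman's rho between SNCG and MMRN2 was -0.74 in adipose and -0.75 in muscle. It is given as a description only, since both genes were picked for their low and high levels and are read from the same libraries at the same depth.

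**Figure D2:**
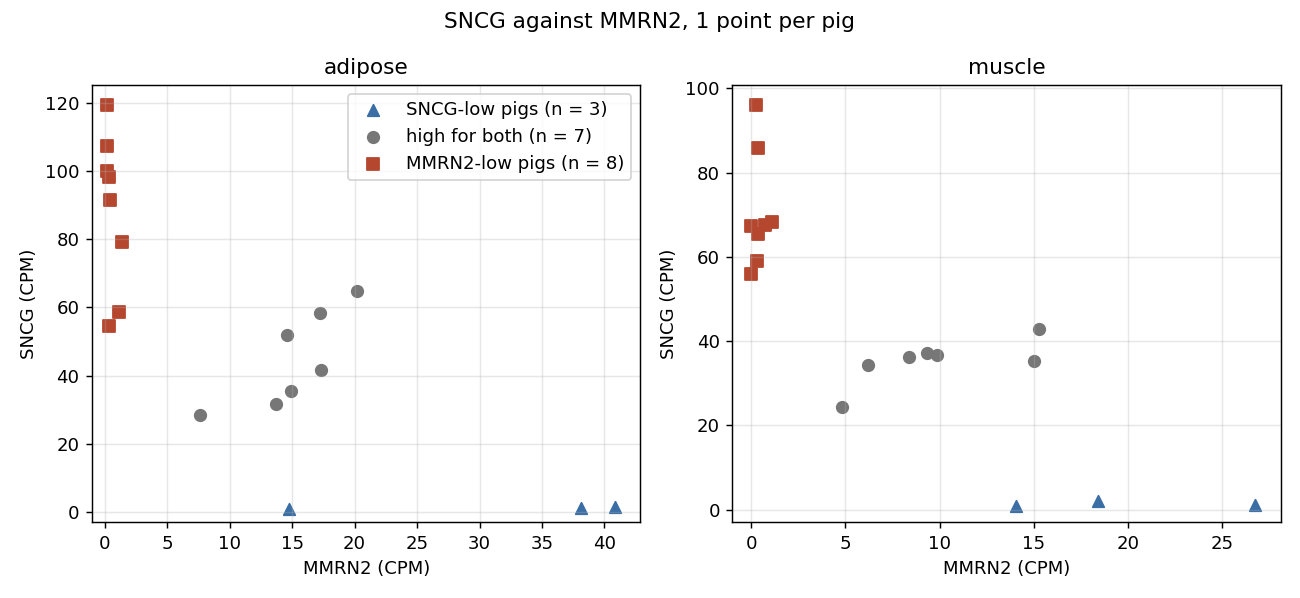
SNCG against MMRN2 (both in CPM, linear axes), 1 point per pig, in adipose (left) and muscle (right). The 3 SNCG-low pigs (triangles) lie along the bottom, the 8 MMRN2-low pigs (squares) along the left edge, and the 7 pigs high for both (circles) between 24.3 and 42.8 CPM of SNCG in muscle, below every MMRN2-low pig there.

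The SMDT1-high pigs were divided further at the widest gap in their muscle CPM, a division made after the values were seen. Sample_231, Sample_491, Sample_659 and Sample_835 had 4.90, 8.99, 7.40 and 6.89 CPM in adipose and 44.3, 41.6, 41.1 and 31.6 CPM in muscle. Sample_176, Sample_186, Sample_242, Sample_391 and Sample_889 had 2.49, 2.36, 3.11, 4.54 and 3.02 CPM in adipose and 13.2, 15.2, 17.2, 11.0 and 11.5 CPM in muscle. In muscle the 4 top pigs lie above the 5 middle ones because the division was made there. In adipose they were also above, but narrowly, at 4.90 CPM (Sample_231) against 4.54 CPM (Sample_391). Adipose alone therefore does not mark this boundary.

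The next question was which other genes differed between the low and high libraries of each gene, within a tissue. An edgeR quasi-likelihood fit on all genes that passed a low-count filter was used, with Benjamini-Hochberg adjustment over all of them and an adjusted p under 0.05 as the threshold. The fits of the 3 genes share the same 18 libraries, so they are not independent of each other. Very few genes passed.

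Between the 15 SNCG-high and 3 SNCG-low adipose libraries, 1 of 13962 other genes passed (0.00716%), and 910 genes (6.52%) had an unadjusted p under 0.05. That gene is ENSSSCG00000029058, to which the name tables used here give no symbol. In adipose it stood between 1.27 and 1.69 CPM in the 3 SNCG-low pigs and ran from 24.3 through a median of 98.5 to 316 CPM in the 15 others. The fitted log2 difference was 6.23 (SE 0.787, adjusted p = 0.00162). In muscle its level was far lower, 0.241 to 0.902 CPM against 1.34 to 9.79 CPM, again without overlap, with a log2 difference of 3.09 (SE 0.742, adjusted p = 0.642). It had the same further step as SNCG, running from 90.9 to 316 CPM in the adipose of MMRN2-low pigs and from 24.3 to 98.5 CPM in that of pigs high for both, with some overlap. Of all 12541 other genes tested between tissues, it was the most like SNCG by the mean of Spearman's rho over adipose and muscle, 0.81 (18 libraries each). That rank uses the same adipose libraries as the call and is no separate support for it.

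In muscle, 0 of 11569 other genes passed between SNCG-high and SNCG-low libraries in edgeR (0%), 495 (4.28%) had an unadjusted p under 0.05, and DESeq2 called 0. With only 3 low pigs, single animals weighed on these counts. Without Sample_911 the adipose count rose from 1 to 6, with PITPNC1, TSPAN14, RIPOR3 and NHERF2 lower in SNCG-high libraries, and without Sample_572 the muscle count rose from 0 to 1 (TNNT2, the cardiac troponin T gene, log2 difference -3.16). These 5 names fall outside the rule for named genes and were chosen after their values were seen.

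Between the 10 MMRN2-high and 8 MMRN2-low adipose libraries, 4 of 13043 other genes passed (0.0307%), 3 higher and 1 lower in the high libraries, and 768 (5.89%) had an unadjusted p under 0.05. None of the 4 has a symbol in the name tables. The clearest was ENSSSCG00000026923, at 2.19 through a median of 3.42 to 8.37 CPM in the 8 low libraries and 43.8 through 76.0 to 184 CPM in the 10 high ones, without overlap. Its log2 difference was 4.63 (SE 0.366, adjusted p = 1.3e-06). In muscle it was close to absent, at 0 to 1.02 CPM against 0.601 to 3.07 CPM, and was filtered out of that fit. It was highest in the 3 SNCG-low pigs, at 143 to 184 CPM in adipose against 43.8 to 109 CPM in the pigs high for both. It ranked as the most like MMRN2 of the 12541 genes, with a mean rho of 0.79, and as the most opposite to SNCG, at -0.76. These ranks use the same adipose libraries as the call and are no separate support for it.

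The other 2 genes higher in MMRN2-high adipose had log2 differences of 3.60 (SE 0.419, adjusted p = 0.00021), without overlap of the sets, and 2.36 (SE 0.403, adjusted p = 0.0374), with overlap. The gene at 2.36 was not among the genes tested without the SNCG-low pigs, where 2 genes were called. The gene that was lower, ENSSSCG00000030834, ran from 1.15 through 7.87 to 28.3 CPM in the low libraries and from 0.147 through 0.671 to 2.72 CPM in the high ones, with overlap. Its log2 difference was -3.48 (SE 0.610, adjusted p = 0.0447). That call was lost with ACTA1 as a covariate (log2 difference -3.51, adjusted p = 0.0615), with library totals (-3.48, adjusted p = 0.0586), with no low-count filter (-3.49, adjusted p = 0.0925) and without the SNCG-low pigs (-4.14, adjusted p = 0.153), while the size of the difference stayed near its value or rose. Skeletal muscle markers were uneven between the MMRN2 classes of adipose without passing the test: all 5 tested genes had log2 differences from 1.74 to 2.20, 3 of them with an unadjusted p under 0.05. Their summed level was 107 to 3381 CPM in the MMRN2-low libraries and 120 to 23821 CPM in the high ones, and no marker was at 0 throughout. With ACTA1 as a covariate, 3 of the 4 calls remained.

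In muscle, 0 of 10650 other genes passed between MMRN2 classes in edgeR (0%), 497 (4.67%) had an unadjusted p under 0.05, and DESeq2 called 0. In adipose DESeq2 called 13, including the 4 above. Among the 4 of them with a symbol, CD4, CCR7 and RASSF4 were lower in MMRN2-high adipose by DESeq2 and CROCC was higher. CD4 and CCR7 are lymphocyte genes. Their adjusted p in edgeR was 0.186 to 0.317, and the 7 blood and immune markers tested had none that passed.

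Between SMDT1-high and SMDT1-low libraries, edgeR called 0 of 12907 other genes in adipose (0%) and 0 of 10534 in muscle (0%). An unadjusted p under 0.05 was reached by 955 genes in adipose (7.40%) and by 1121 in muscle (10.6%). DESeq2 called 42 in adipose, 41 of them lower in the high libraries, and 8 in muscle, 3 higher and 5 lower. None of these passed in edgeR, where their adjusted p ran from 0.0727 to 0.260 in adipose and from 0.319 to 0.432 in muscle. The adipose gene higher by DESeq2 was SCD, the stearoyl-CoA desaturase of fatty acid synthesis (log2 difference 1.38), and among the lower ones with a symbol the lowest DESeq2 p values belonged to SNX2 (-0.47) and PIBF1 (-0.97). The 4 with a symbol in muscle were HOXC10 (-1.45), SLC7A8 (-1.18), CLYBL (0.69) and ATF5 (1.57). These names too were chosen after their values were seen.

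Neighbouring genes were read from the same fits. Of the 10 RefSeq genes on each side of SNCG or MMRN2, 6 of 20 could be matched to a row of the count table, and the 4 that were tested and are not SNCG or MMRN2 were WAPL, BMPR1A, GLUD1 and SHLD2. None of the 4 passed in any of the 4 fits, and the lowest adjusted p was 0.745 for SNCG in adipose, 0.974 for SNCG in muscle, 0.958 for MMRN2 in adipose and 0.916 for MMRN2 in muscle. BMPR1A, a receptor for bone morphogenetic proteins whose annotation overlaps MMRN2, differed by 0.13 (SE 0.134) in adipose and 0.04 (SE 0.127) in muscle between MMRN2 classes on the log2 scale. Whether the reads kept their strand is not stated, so reads from the overlap cannot be assigned by strand. Between SNCG classes BMPR1A differed by 0.27 (SE 0.178) in adipose and 0.44 (SE 0.147, unadjusted p = 0.00713) in muscle. ADIRF, the other direct neighbour of SNCG, could not be matched to a row.

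SMDT1 had 4 of 20 neighbours with a row, and NDUFA6 and SREBF2 are described here. NDUFA6, an accessory subunit of respiratory complex I and the gene next to SMDT1, had the larger differences. In muscle it ran from 0.854 through a median of 5.11 to 7.80 CPM in SMDT1-low pigs and from 5.27 through 8.84 to 27.6 CPM in SMDT1-high pigs, a log2 difference of 1.52 (SE 0.404, unadjusted p = 0.00125, adjusted p = 0.432). In adipose it ran from 0.440 through 1.57 to 1.87 CPM and from 1.66 through 2.25 to 3.02 CPM, a log2 difference of 0.82 (SE 0.255, unadjusted p = 0.00456, adjusted p = 0.341). The sets overlapped in both tissues and neither difference passed.

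NDUFA6 also had a low set of its own, inside that of SMDT1. Sample_77, Sample_114, Sample_572 and Sample_656, all SMDT1-low, had 0.440 to 0.860 CPM in adipose and 0.854 to 1.57 CPM in muscle, on 2.5 to 6.5 counts. The other 5 SMDT1-low pigs had 1.57 to 1.87 CPM in adipose and 5.11 to 7.80 CPM in muscle, without overlap with these 4. This division was also made after the values were seen, at the widest gap in muscle NDUFA6 among the SMDT1-low pigs. The lack of overlap in muscle is therefore set by the division, and only that in adipose is not. SREBF2, which switches on cholesterol synthesis genes, differed by 0.14 (SE 0.127) in adipose and 0.33 (SE 0.134) in muscle and did not pass.

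**Figure D3:**
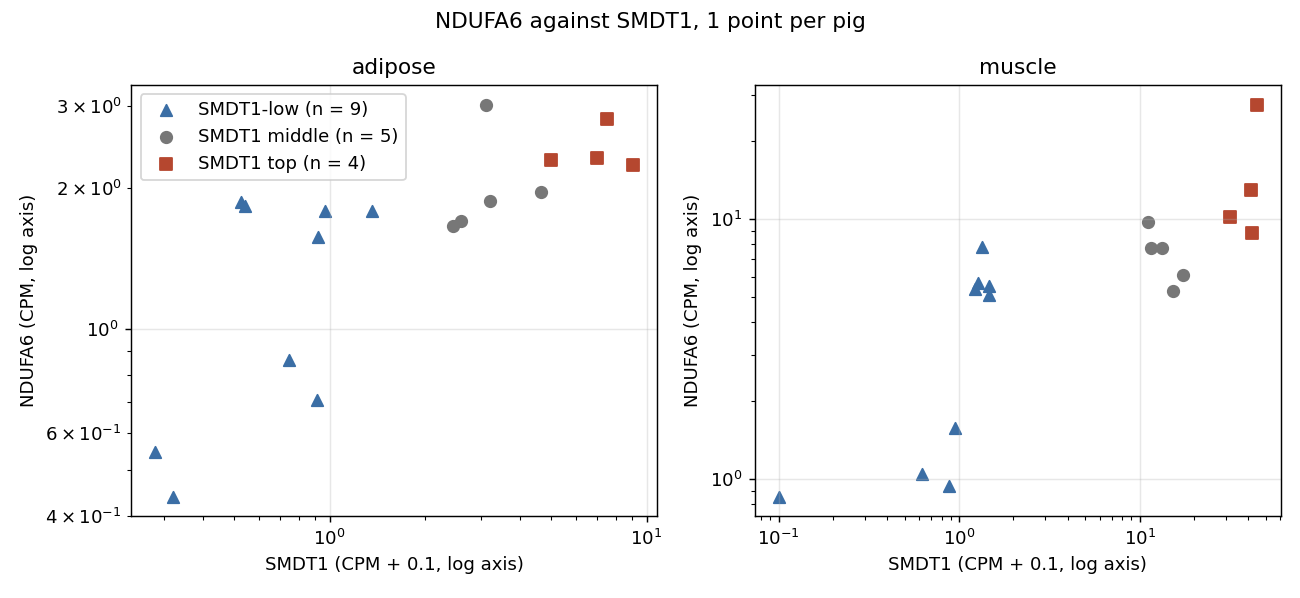
NDUFA6 (CPM, log axis) against SMDT1 (CPM plus 0.1, log axis), 1 point per pig, in adipose (left) and muscle (right), with the 9 SMDT1-low pigs as triangles, the 5 middle pigs as circles and the 4 top pigs as squares. In both panels 4 of the SMDT1-low pigs lie below all other pigs in NDUFA6, and the other 5 lie near the middle pigs.

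**Figure D4:**
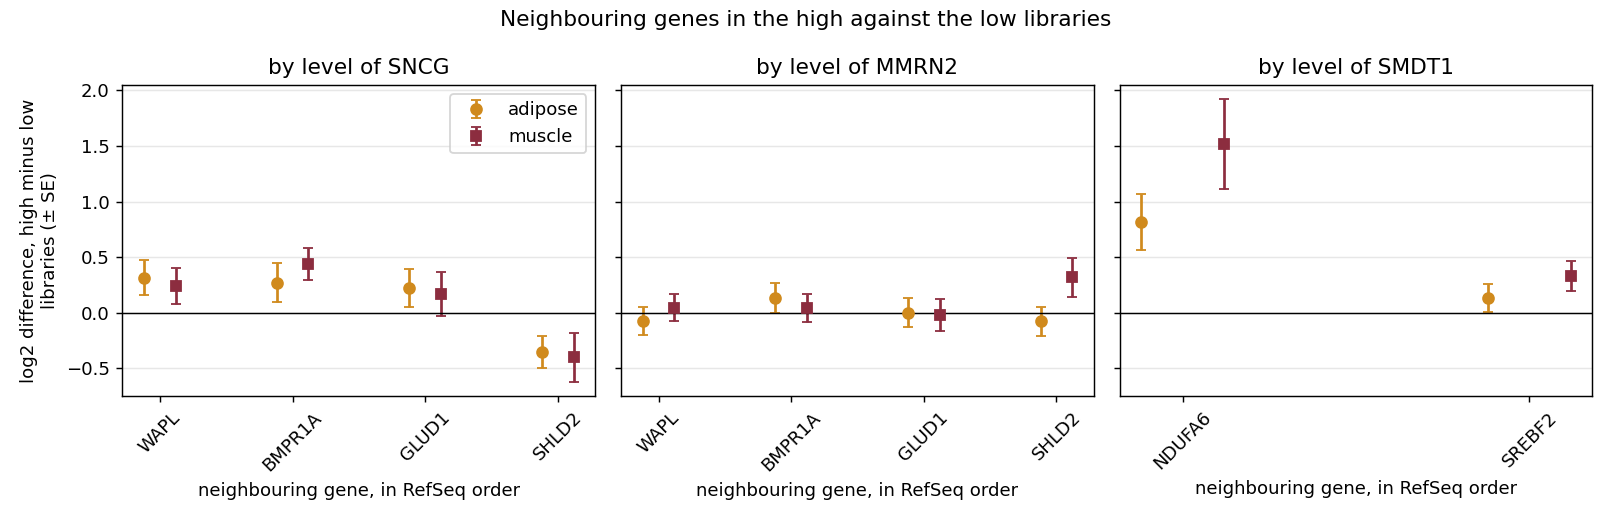
Log2 difference (high minus low libraries, with its SE) of neighbours of SNCG, MMRN2 and SMDT1 in adipose (circles) and muscle (squares), from fits on 18 libraries each. NDUFA6 lies farthest from 0, at 0.82 and 1.52, and no neighbour passed an adjusted p of 0.05.

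Likeness was also ranked over all genes tested between tissues, as the mean of Spearman's rho in adipose and in muscle with 18 libraries each. These are descriptions without a p, and both genes of a pair are read from the same libraries at the same depth. The ranks use the same libraries as the low and high classes and are no separate support for differences between them. NDUFA6 was the gene most like SMDT1 of 12541, with a rho of 0.79 in adipose (3 to 24.5 NDUFA6 counts) and 0.82 in muscle (2.5 to 72). It was followed by GSTM3, a glutathione transferase (mean 0.67), FADS1, a fatty acid desaturase (0.64), MRPS27, a protein of the mitochondrial ribosome (0.64), and THOC3 (0.63), while IL13RA2 (-0.67), GTDC1 (-0.66) and SENP6 (-0.65) were most opposite among genes with a symbol. With a symbol, the genes most like SNCG were EXOC7, a subunit of the exocyst (0.62), RASSF4 (0.57), DUOX2 (0.55), the fatty acid transporter SLC27A1 (0.54) and the bicarbonate transporter SLC4A7 (0.53). MMRN2 (-0.74) and PREPL (-0.63) were among the genes with a symbol most opposite to SNCG. PREPL (0.66) was among the genes most like MMRN2, with the potassium channel KCNQ5 (0.66), SHROOM4 (0.61) and CBLL1 (0.58). SNCG (-0.74), DAP3 (-0.68) and AKR7A2 (-0.64) were most opposite to MMRN2 among genes with a symbol.

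Genes that work with the 3 proteins, or mark cells that make them, were read from 11 lists. None of the list entries tested passed in any of the 6 fits of high against low libraries, 71 and 70 entries for SNCG in adipose and muscle, 69 and 68 for MMRN2, and 69 and 68 for SMDT1. The background shares of called genes given above were 0.0307% or less.

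Between SMDT1 classes, the partners of SMDT1 in the uniporter had log2 differences from -0.47 to 0.28 in adipose and from -0.30 to 0.47 in muscle. The median log2 difference was -0.04 over 9 uniporter genes in adipose, beside 0.02 over all genes, and 0.08 over 10 in muscle, beside 0.01. MCU, the pore itself, differed by -0.04 (SE 0.244) in adipose and 0.09 (SE 0.147) in muscle. The gatekeeper MICU2 differed by -0.05 (SE 0.0793) and 0.27 (SE 0.138). The sodium-calcium exchanger SLC8B1, which lets calcium out of mitochondria, had the most positive differences of the list, 0.28 (SE 0.133) and 0.47 (SE 0.242). In muscle, 13 respiratory chain genes had a median of 0.28 in the same fit, and 6 of them, NDUFA6 among them, had an unadjusted p under 0.05, as had 10.6% of all genes tested there. None of the 13 passed after adjustment. Of 4 tested genes of the stress and immediate early list, 2 also had an unadjusted p under 0.05 and none passed. The stress-response factor ATF3 differed by 1.20 and the chaperone HSPA5 by 0.41. The summed level of that list ran from 299 to 1016 CPM in SMDT1-low and from 313 to 2925 CPM in SMDT1-high muscle, and its part in the result was not tested. In adipose the median of the 13 respiratory chain genes was 0.01.

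For MMRN2, 7 relatives and binding partners had a median log2 difference of 0.04 in adipose and -0.23 in muscle, beside 0.00 over all genes in both tissues. Its receptors CLEC14A, at 0.26 (SE 0.157) in adipose and 0.08 (SE 0.129) in muscle, and CD93, at -0.35 (SE 0.193) and -0.44 (SE 0.202), lay on opposite sides of 0. The receptor CD248 lay on the side of CD93, at -0.08 (SE 0.183) and -0.55 (SE 0.270). The endothelial cells that make MMRN2 were tracked by 9 markers with medians of 0.17 and -0.06. Of these, ERG, an endothelial transcription factor, had the lowest p, at 0.34 (SE 0.101, unadjusted p = 0.00327, adjusted p = 0.836) in adipose. Their summed level ran from 669 to 1113 CPM in MMRN2-low adipose and from 661 to 1543 CPM in MMRN2-high adipose, and from 443 to 696 and from 388 to 755 CPM in muscle, so the classes overlapped throughout.

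For SNCG, 8 adipocyte markers had a median log2 difference of 0.05 in adipose and 0.18 in muscle. The 8 ran from -0.30 to 0.75 in adipose and from -1.04 to 0.85 in muscle. The lipid droplet gene PLIN1 differed by 0.11 (SE 0.221) and 0.85 (SE 0.794), and LIPE by -0.30 (SE 0.371) and -1.04 (SE 0.585). Summed adipocyte markers ran from 2107 to 2935 CPM in the SNCG-low adipose libraries, inside the range of 1717 to 3263 CPM of the high ones. All 9 endothelial markers had negative fitted differences in adipose (lower in SNCG-high libraries), with a median of -0.47, and the endothelial adhesion gene ESAM had the lowest p, at -0.86 (SE 0.211, unadjusted p = 0.000616, adjusted p = 0.656). Their summed level was 796, 1359 and 1543 CPM in the 3 SNCG-low libraries and 661 to 1211 CPM in the 15 high ones, with overlap. Whether this bears on the other differences by the level of SNCG was not tested.

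**Figure D5:**
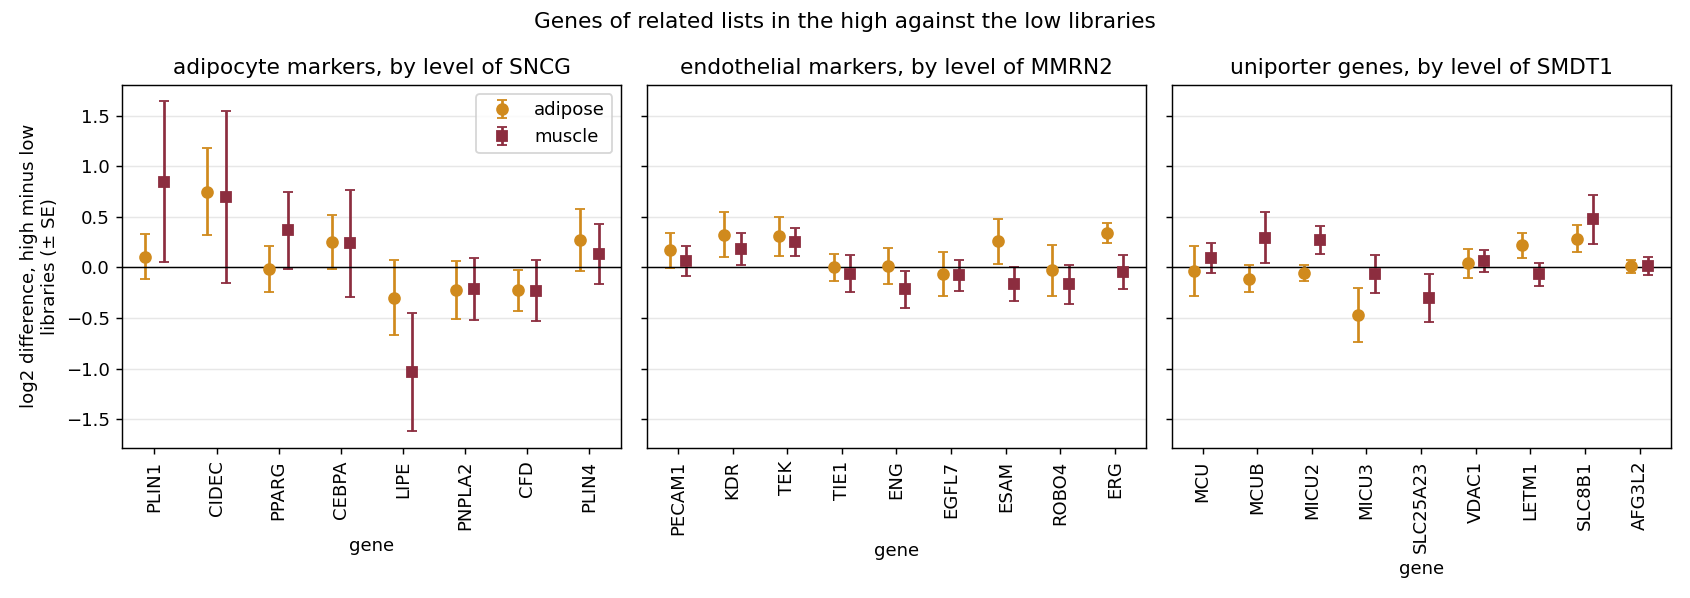
Log2 difference (high minus low libraries, with its SE) of 8 adipocyte markers by the level of SNCG, 9 endothelial markers by the level of MMRN2, and 9 uniporter genes by the level of SMDT1, in adipose (circles) and muscle (squares). The points scatter around 0, none passed an adjusted p of 0.05, and SLC25A23 was tested in muscle only.

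General measures of the libraries were compared between the classes as well: total counts, the share outside annotated genes, the share that was ambiguous, the share of the 10 top genes, and ACTA1. In 30 exact permutation tests, two-sided, the lowest p was 0.0786, for the share outside annotated genes by MMRN2 in muscle, and after Benjamini-Hochberg adjustment none was below 0.877. ACTA1 in adipose was 949 to 3792 CPM in the SNCG-low libraries and 52.4 through a median of 275 to 17526 CPM in the SNCG-high ones (exact permutation p = 0.141). The sex of the pigs was not compared, since none of 8 sex-linked genes could be matched to a row.

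Between tissues, SMDT1 was the gene of the 3 that differed most. In the comparison of adipose with muscle, 85.9% of 12542 genes passed, 46.7% higher in adipose and 39.2% higher in muscle, so passing alone sets no gene apart. SMDT1 averaged 13.1 ± 15.8 CPM in the 18 muscle libraries and 2.74 ± 2.74 CPM in the 18 adipose libraries (mean ± SD). Adipose minus muscle was -2.22 on the log2 scale (SE 0.559, adjusted p = 0.000438 in edgeR). Muscle was higher in 17 of 18 pigs and in all 9 SMDT1-high pigs, where the paired log2 difference averaged -2.29 and ran from -3.15 to -1.26. With library totals alone the difference was -0.81 (adjusted p = 0.175), under a scaling that moved the median of all genes from 0.14 to 1.5. That scaling also moved the genes higher in adipose from 54.3% to 87.0% of all calls.

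SNCG averaged 45.4 ± 27.8 CPM over the muscle libraries and 56.9 ± 37.0 CPM over the adipose libraries, and adipose minus muscle was 0.33 on the log2 scale (SE 0.450, adjusted p = 0.497). MMRN2 averaged 7.29 ± 7.95 CPM in muscle and 11.3 ± 12.7 CPM in adipose, a log2 difference of 0.63 (SE 0.610, adjusted p = 0.331). Both tissues come from the same pigs, and with the pig as a block, which removes the low and high levels that a pig carries in both tissues, the differences were 0.29 (SE 0.105, adjusted p = 0.0145) for SNCG and 0.61 (SE 0.155, adjusted p = 0.000817) for MMRN2. Adipose was higher in 13 of 18 pigs for SNCG and in 14 of 18 for MMRN2. In an exact two-sided sign-flip permutation of the within-pig log2 differences, SNCG did not pass (0.23, p = 0.0783) and MMRN2 did (0.60, p = 0.00436). On the TMM scale neither passed without the pairing. With library totals alone the differences were 1.72 (adjusted p = 0.00109) and 1.98 (adjusted p = 0.00488), near the 1.5 at which the median gene then stood.

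The lists showed where these differences stood among related genes, on the TMM scale. Of 9 uniporter genes tested, 5 were higher in muscle and 3 in adipose, with a median of -0.78 beside 0.14 over all genes. MCU (-2.64) was higher in muscle like SMDT1, and so was the outer membrane channel VDAC1 (-3.23). SLC8B1 (1.87) and MCUB (1.42), a pore subunit that damps the current, were higher in adipose. MICU2 (-0.09) did not pass, and with library totals alone MICU2 (1.30) and LETM1 (0.59, against -0.78) lay on the adipose side. Of 7 relatives and partners of MMRN2, 6 were higher in adipose, led by MMRN1 (3.82) and CD248 (2.35), with CD93 at 0.09 not passing. Of 9 endothelial markers, 8 were higher in adipose, with a median of 0.66. On the synuclein list, PARK7 (-1.91) and the chaperone HSPA8 (-2.05) were higher in muscle.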

How the data were processed

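The files hold 1 table of expected counts for 25322 Ensembl pig genes in 36 libraries, deposited without normalisation, and all its columns were used. Per the labels' protocols, TruSeq libraries were read for 100 nt from both ends. The submitters' processing notes list GSNAP and HTSeq with no version, and no source used here names the genome build. Values come in steps of 0.5 (35.1% are not whole) and were rounded to whole numbers for all fits. The 5 lines that name no gene stayed out. Counts outside annotated genes were 34.5% ± 5.60 of an adipose and 19.9% ± 4.01 of a muscle library (SD, n = 18). Symbols were found for 11804 genes in a table of current names.

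Fits used edgeR 4.0.16 in R 4.3.3 (robust quasi-likelihood, TMM, filterByExpr), with DESeq2 1.42.0 as an alternative, and were tested on simulated data. The SE is the size of the log2 difference over the root of its F statistic. TMM factors averaged 1.62 in adipose and 0.626 in muscle. The low and high classes used a prior count of 0.5 and at least 2 libraries on each side. The adipose and muscle libraries that share a number are of the same animal and are paired. As a check, deviations from the tissue means correlated at 0.238 on average within pigs (0.102 to 0.357) and -0.0139 between pigs. The highest value between pigs was 0.410, above every value within pigs, so the check holds for the averages only.

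The genes followed and the 11 lists (115 genes) were chosen with earlier results of these data known. The lists cover the uniporter, synucleins, EMILIN and multimerin genes, and endothelial, adipocyte, nerve, skeletal muscle, and blood and immune markers. They also cover respiratory chain genes, sex-linked genes, and stress, immediate early and degradation-sensitive genes. Named genes were the 5 most like and 3 most opposite with a symbol, up to 8 called in each direction of a fit, called neighbours and the 2 nearest on each side, up to 4 list genes by mean CPM, and list genes called; some of these are not reported here. Alternatives were scaling, filter, rounding, tool, pig block, exact sign-flip test, class boundary, class from the other tissue, an ACTA1 covariate and single libraries left out. The fits without SNCG-low or MMRN2-low pigs were added after seeing the data.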

Additional observations from a re-analysis of the deposited data

How the results depend on the processing

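With the pig as a replicate block, the tissue differences of SNCG and MMRN2 were 0.29 and 0.61 and passed, as did MMRN2 in an exact sign-flip permutation of the within-pig differences (0.60, p = 0.00436), in which SNCG did not (0.23, p = 0.0783); the block changed no call for SMDT1. Library totals alone gave 1.72 for SNCG and 1.98 for MMRN2, which then passed, and -0.81 for SMDT1, which did not. On that scale MICU2 (1.30), LETM1 (0.59) and ESAM (1.34) turned to the adipose side. Leaving out single SNCG-low libraries gave 1 to 6 genes in adipose and 0 to 1 in muscle. DESeq2 called 13 genes for MMRN2 in adipose, and 42 in adipose and 8 in muscle for SMDT1. For SMDT1 in muscle, library totals gave 1 gene and no low-count filter 1. Without the SNCG-low pigs, MMRN2 in adipose had 2 genes on fewer libraries. Differences of GLUD1 and WAPL near 0 changed sign: GLUD1 ran from -0.00594 (without Sample_572) to 0.322 for SNCG in muscle when single SNCG-low libraries were left out. For MMRN2 in adipose it was -0.0024 with library totals, -0.0027 with no filter and -0.0033 in DESeq2. In muscle it was 0.0502 with library totals and 0.0340 without SNCG-low pigs. WAPL was 0.0131 for MMRN2 in adipose without those pigs. Except where a smaller set of pigs was used, the cause was not tested. A further 370 values of single genes kept their direction and their side of the threshold. Another 59 values, among them class sizes and counts of genes, kept theirs or stayed within 1.5 times; the MMRN2 count in adipose was 3 in place of 4 with library totals, with no filter and with ACTA1 as a covariate, where the gene that was lower in MMRN2-high adipose lost its call. Low levels of 0 to 14 counts per library limit any statement about how far the low classes lie above 0.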

Other observations

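Nerve genes, whose levels by class are not described above, and stress and immediate early genes gave no call by level either. For SNCG, which peripheral neurons also express, 5 nerve and Schwann cell markers had a median log2 difference of -0.22 in adipose and 4 had a median of 0.58 in muscle, none of them passing in edgeR. Their summed level was 46.5 to 118 CPM in SNCG-low adipose and 35.1 to 125 CPM in SNCG-high adipose, and 60.3 to 81.3 CPM and 44.6 to 163 CPM in muscle, with overlap in both tissues. Of the 8 genes on the stress and immediate early list, 4 were tested: FOS, EGR1, ATF3 and HSPA5. They are no measure of RNA quality. Their medians by the level of SNCG were 0.33 in adipose and 0.42 in muscle, also without a call. By the level of SMDT1 they were 0.29 and 0.24. There 1 of the 4 genes in adipose and 2 in muscle had an unadjusted p under 0.05 in edgeR, and none was called. Blood and immune markers had a median of -0.85 by the level of MMRN2 in muscle, where 3 of 6 had an unadjusted p under 0.05 and none passed (lowest adjusted p = 0.916).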
